A study of Mus musculus with 2 samples.

Results

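Interferon regulatory factors (IRFs) and signal transducers and activators of transcription (STATs) were followed in mouse peritoneal macrophages treated with LPS+CPN+GGOH, against macrophages treated with LPS+CPN. The set was fixed by gene symbol. It held all probe sets annotated to exactly 1 of 9 genes, namely Irf1, Irf2, Irf4, Irf5, Irf7, Irf8, Irf9, Stat2 and Stat3. This gave 16 of the 45101 probe sets on the array and 9 of 18193 named genes, and no probe set listed any of these genes together with another gene. Both groups were C57BL/6J cells harvested 3 days after thioglycolate, an irritant that recruits macrophages to the peritoneal cavity, and both received lipopolysaccharide (LPS) and the agent labelled CPN, whose full name the labels do not give. The LPS+CPN+GGOH culture also received geranylgeraniol (GGOH), an isoprenoid alcohol that cells can convert to the lipid group used to anchor many small GTPases. There was 1 array per group, so no difference below has a replicate error or a p-value. The labels state neither dose nor treatment time nor how many animals were used, and untreated cells or cells treated with LPS alone are not analysed here.

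IRFs bind interferon-stimulated response elements (ISREs) through a tryptophan-rich domain, and STATs, once phosphorylated by JAK kinases at cytokine receptors, bind gamma-activated sites (GAS). STAT2 and IRF9 are subunits of ISGF3, the complex that drives antiviral genes downstream of type I interferon, while IRF7 and IRF5 act below Toll-like receptors and induce interferon and cytokine genes. IRF1 is itself an interferon- and LPS-inducible activator, IRF2 competes with it for the same sites, IRF8 and IRF4 work with partner factors in myeloid and lymphoid cells, and STAT3 transmits IL-6 and IL-10 signals.

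Promoter sequences are shown for the members with a GAS or ISRE match. A GAS was found for Irf1, Irf2 and Irf8 and for none of the other 6 members. These sequences were chosen after the ratios below were seen, and a link between motif and ratio was not tested. Irf1 and Irf8 each had a second window, which held no GAS or ISRE match and is not printed. All 9 members had an entry in RefSeq's promoter windows (GRCm38.p6, 250 bases before to 50 after each annotated start), 12 entries in all. Both strands were searched for GAS, written TTCNNNGAA, for ISRE, written GAAANNGAAA or TTTCNNTTTC on the other strand, and for the NF-kB consensus. In the sequences, which give the 250 bases upstream of the start on the plus strand, capitals mark GAS and ISRE matches. Those of Irf1 (chr11:53769764-53770013), Irf8 (chr8:120736108-120736357), Irf2 (chr8:46739495-46739744) and Stat2 (chr10:128270248-128270497) are:
Irf1: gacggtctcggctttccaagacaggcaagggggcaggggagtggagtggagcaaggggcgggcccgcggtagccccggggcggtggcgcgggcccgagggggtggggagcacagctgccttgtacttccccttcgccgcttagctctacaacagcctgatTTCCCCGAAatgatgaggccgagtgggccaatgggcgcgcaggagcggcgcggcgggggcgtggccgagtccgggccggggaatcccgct
Irf8: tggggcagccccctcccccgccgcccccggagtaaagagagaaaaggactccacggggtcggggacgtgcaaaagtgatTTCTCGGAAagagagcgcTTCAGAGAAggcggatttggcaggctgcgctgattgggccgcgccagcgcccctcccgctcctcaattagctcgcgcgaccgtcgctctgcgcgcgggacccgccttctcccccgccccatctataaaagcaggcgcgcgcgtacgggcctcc
Irf2: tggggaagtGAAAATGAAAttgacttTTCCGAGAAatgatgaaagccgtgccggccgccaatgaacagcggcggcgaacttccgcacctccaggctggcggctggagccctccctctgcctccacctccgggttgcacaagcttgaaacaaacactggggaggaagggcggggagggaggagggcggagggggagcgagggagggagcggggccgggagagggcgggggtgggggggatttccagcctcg
Stat2: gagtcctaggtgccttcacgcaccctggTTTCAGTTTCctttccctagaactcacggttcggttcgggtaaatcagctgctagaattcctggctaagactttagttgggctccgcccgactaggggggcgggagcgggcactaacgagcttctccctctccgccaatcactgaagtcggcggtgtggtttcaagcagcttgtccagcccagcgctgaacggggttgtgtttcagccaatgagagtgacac
The Irf1 window held 1 GAS, TTCCCCGAA, beginning 90 bases before the start. Irf8 held 2, TTCTCGGAA and TTCAGAGAA, beginning 171 and 153 bases before it. Irf2 held TTCCGAGAA and an ISRE, GAAAATGAAA, which did not overlap, and Stat2 held an ISRE in the TTTCNNTTTC orientation. The windows of Irf1 and Irf2 also held the NF-kB consensus near the start, at 13 and 17 bases before it. Of all 32851 promoter windows, 8.30% held a GAS, 3.44% an ISRE and 8.46% the NF-kB consensus, with no overlap rule applied between motifs. Counted per gene, over any of its windows, the shares were 9.55% for GAS, 3.99% for ISRE and 9.55% for the NF-kB consensus.

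The signals were MAS5 intensities, already scaled by the authors to a common trimmed mean. A floor of 59.9, the median of all non-control signals, marked the level below which a signal was not counted as measured, and 15 of the 16 probe sets were above it on both arrays. A gene with several probe sets took the value of the one with the highest mean signal. As a scale of disagreement between probe sets, log2 ratios of probe sets that target 1 gene differed among themselves with a pooled SD of 0.45 over 4166 genes. It comes from the same arrays and holds no error between cultures. The labelled cell type was borne out by 14 of 15 macrophage markers above the floor, whose summed signal was 166860 with LPS+CPN+GGOH and 188936 with LPS+CPN, with a median log2 ratio of -0.24. On the LPS+CPN+GGOH array 12 of 14 measured mesothelial and fibroblast markers were at least 2-fold higher (none lower), with a summed signal of 29896 against 1474 with LPS+CPN, where 12 of the 15 were at the floor. Markers of T and NK cells (5 on the array) and of mast cells and eosinophils (8 on the array) were all at the floor on both arrays. The same was true of 4 of 5 B cell markers, the exception being Blk, whose signal was 102 with LPS+CPN+GGOH and 42.0 with LPS+CPN. Of 6 dendritic cell markers 4 were measured on at least 1 array and none was 2-fold apart, and of 6 neutrophil markers only S100a8 was above the floor on both arrays, at 2216 with LPS+CPN+GGOH and 4282 with LPS+CPN. The part of these markers in the values of the IRF and STAT genes was not tested.

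Irf1, the interferon-inducible activator, was the member that differed most. Its single probe set gave a signal of 2904 on the LPS+CPN+GGOH array and 18294 on the LPS+CPN array. The signal with GGOH was thus 15.9% of that without it, 6.30-fold lower, a log2 ratio of -2.66. Of 11518 genes measured on at least 1 array, only 1 other gene had a ratio as low or lower. Among the 500 genes closest to Irf1 in mean signal none had a ratio as low, and 5% to 95% of them lay between -0.79 and 0.44. With a single probe set, no second measurement of Irf1 on the same arrays was available. In bulk RNA of this kind, fewer cells expressing a gene and less RNA per cell cannot be told apart.

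Irf2 and Irf8 were lower by less than 2-fold. Irf2, the factor that competes with IRF1 for its sites, had a signal of 840.3 with LPS+CPN+GGOH and 1496 with LPS+CPN, a log2 ratio of -0.83. Among the 500 genes nearest to it in signal 12 had a ratio as low. Irf8, a factor of monocyte and dendritic cell development, had signals of 4575 with LPS+CPN+GGOH and 7685 with LPS+CPN on its brighter probe set, a log2 ratio of -0.75. Its other probe set gave 2156 with LPS+CPN+GGOH and 4675 with LPS+CPN, a log2 ratio of -1.12. Both Irf8 probe sets were therefore lower, on either side of the 2-fold line, and 24 of the 500 genes nearest to the brighter one had a ratio as low. The macrophage marker list was lower by a median of 0.24 on the same log2 scale, and with the arrays scaled to equal macrophage markers the log2 ratios became -0.59 for Irf2 and -0.51 for Irf8, against -2.41 for Irf1.

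**Figure D1:**
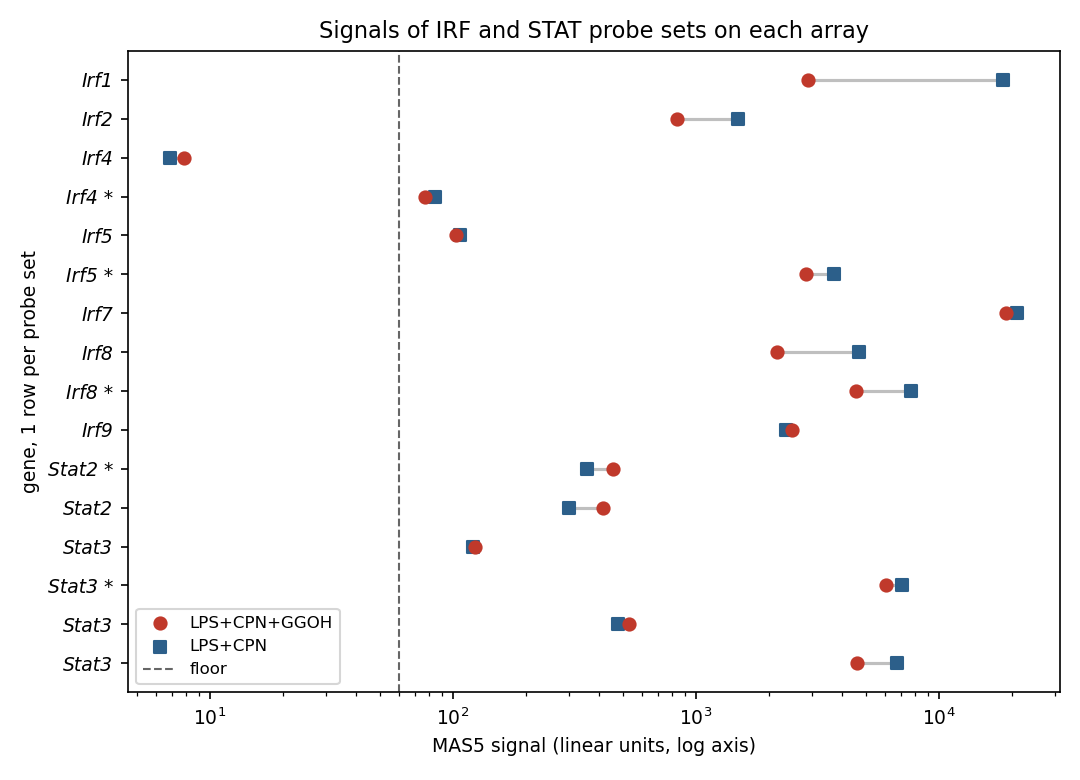
MAS5 signals of the 16 IRF and STAT probe sets (1 row each, log axis) on the LPS+CPN+GGOH array (circles) and the LPS+CPN array (squares). The dashed line is the floor of 59.9, and an asterisk marks the probe set used for a gene with several. The widest gap is that of Irf1, at 2904 with LPS+CPN+GGOH and 18294 with LPS+CPN, followed by the dimmer Irf8 probe set at 2156 and 4675.

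The IRFs that act directly below Toll-like receptors differed little. Irf7, the main inducer of interferon-alpha genes, had a signal of 18847 with LPS+CPN+GGOH and 21039.8 with LPS+CPN, a log2 ratio of -0.16. That was close to the median of -0.17 among the 500 genes of nearest signal, so at this brightness its ratio was that of a typical gene. Irf5, which drives inflammatory cytokine genes, had 2845 with LPS+CPN+GGOH and 3699 with LPS+CPN on its brighter probe set, a log2 ratio of -0.38. A dimmer Irf5 probe set gave 103 with LPS+CPN+GGOH and 107 with LPS+CPN. Both ratios were smaller than the spread between probe sets of a gene.

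Irf4, a factor of lymphoid cells and of alternatively activated macrophages, was close to the floor. Its brighter probe set gave 77.1 with LPS+CPN+GGOH and 84.5 with LPS+CPN, a log2 ratio of -0.13, and the other gave 7.86 with LPS+CPN+GGOH and 6.88 with LPS+CPN, below the floor on both arrays. At such low signals the 5% to 95% range of the 500 nearest genes ran from -0.97 to 1.497, so a difference of Irf4 within that range could not be told from the spread of such genes.

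The ISGF3 subunits were not lower. Stat2 had signals of 457 with LPS+CPN+GGOH and 356 with LPS+CPN on the first of its probe sets and 415 with LPS+CPN+GGOH and 299.9 with LPS+CPN on the other. Both were higher with GGOH, with log2 ratios of 0.36 and 0.47. Irf9, the DNA-binding subunit, had 2491 with LPS+CPN+GGOH and 2359 with LPS+CPN, a log2 ratio of 0.08. Neither gene was 2-fold apart, and 377 of the 500 genes nearest to Stat2 in signal had a ratio as low or lower.

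Stat3, the factor of IL-6 and IL-10 receptors, had 4 probe sets whose ratios did not share a sign. The brightest gave 6083 with LPS+CPN+GGOH and 7029 with LPS+CPN, a log2 ratio of -0.21. The next gave 4594 with LPS+CPN+GGOH and 6694 with LPS+CPN, a log2 ratio of -0.54. The remaining pair, with signals of 529 and 124 with LPS+CPN+GGOH against 478 and 121 with LPS+CPN, had log2 ratios of 0.15 and 0.02. The lower ratios came from the bright probe sets, and a direction for Stat3 as a gene was not settled by these arrays.

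Set in order, the log2 ratios of the 9 genes ran from Irf1 (-2.66) through Irf2 (-0.83), Irf8 (-0.75), Irf5 (-0.38), Stat3 (-0.21), Irf7 (-0.16), Irf4 (-0.13) and Irf9 (0.08) to Stat2 (0.36). The step between Irf1 and Irf2 was 1.82. Every other step was 0.37 or less, below the 0.45 spread between probe sets, so the order of those neighbours was not resolved. That spread holds no error between cultures, so with 1 array per group the step between Irf1 and Irf2 has no error estimate either. At 2-fold or more, 1 of the 9 genes was lower and 0 were higher, where 1.66% of all measured genes were lower and 5.5% were higher. The median log2 ratio was -0.21 for the 9 genes and -0.18 for the 8 without Irf1, beside -0.01 for all measured genes. The shares over all genes moved with the scaling. With each array divided by its median, 2.88% were lower and 4.58% higher. After quantile normalization the shares were 2.66% lower and 4.36% higher, and with equal macrophage markers 0.744% lower and 8.16% higher. Dividing by the medians moved the median of all genes to -0.17 and equal macrophage markers moved it to 0.21. Both scalings shift genes above the floor alike, so Irf1 could barely move relative to that median. It lay at -2.65 with the first and -2.63 with the second.

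**Figure D2:**
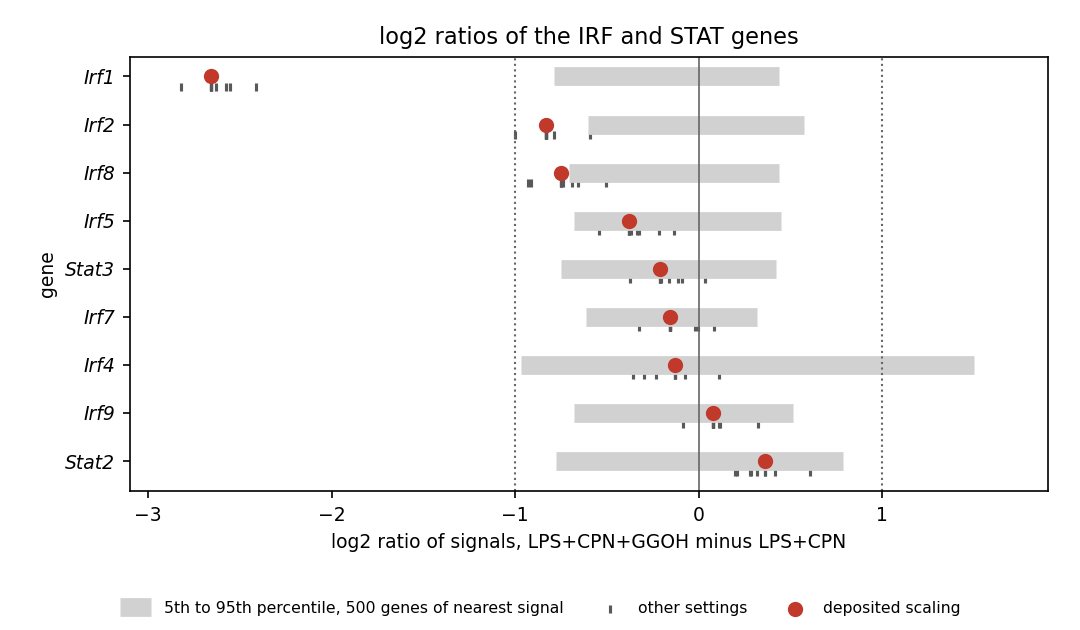
log2 ratios (LPS+CPN+GGOH minus LPS+CPN) of the 9 genes at the deposited scaling (circles) and under 9 other settings (ticks, 8 for Irf4). Grey bars are the 5th to 95th percentile of the 500 genes nearest in mean signal. Dotted lines mark 2-fold. Irf1 lies far left of its bar at -2.66, Irf2 (-0.83) and Irf8 (-0.75) lie just outside theirs, and the other 6 lie within.

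Upstream of these factors, ligand genes differed in both directions. Of 10 measured ligands of JAK-STAT receptors, 2 were at least 2-fold higher and 1 lower, with a median log2 ratio of -0.23. The shares were 20% higher and 10% lower, beside 5.5% and 1.66% of all measured genes. Il6, which signals through STAT3, had 2434 with LPS+CPN+GGOH and 429.5 with LPS+CPN (5.67-fold higher), and Lif, of the same receptor family, had a log2 ratio of 1.48. The mesothelial and fibroblast markers moved the same way as these 2 genes, and their part in the values was not tested. Il10, the other main STAT3 cytokine of macrophages, had 161 with LPS+CPN and was at the floor with LPS+CPN+GGOH, at least 2.69-fold lower, and Il12a was at least 1.62-fold lower. Ifnb1, the interferon-beta gene, had 87.2 with LPS+CPN+GGOH and 126 with LPS+CPN, both near the floor.

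Among receptors, kinases and adaptors 1 gene passed 2-fold on the probe sets used. Of 15 measured receptors 1 was at least 2-fold higher (6.67%, beside 5.5% of all measured genes) and 0 were lower, with a median of 0.01. It was Osmr, the oncostatin M receptor, at least 8.34-fold higher, a gene that fibroblasts and mesothelial cells express. Il6ra (-0.80, with its other probe set at 0.43), Il10ra (-0.60) and Ifngr1 (0.53) followed, and the type I interferon receptor genes Ifnar1 and Ifnar2 had log2 ratios of -0.18 and 0.01. The other probe set of Ifnar1 was at 0.64, so its probe sets did not share a sign. The 3 probe sets of Il6st ran from -0.04 to 1.904, so a probe set not used for that gene passed 2-fold upward. None of the 4 JAK kinases passed 2-fold, with Jak3 at -0.78, Tyk2 at -0.42, Jak2 at -0.18 and Jak1 at 0.01 (median -0.30). None of 17 sensors, adaptors and kinases upstream of IRFs did either, and the largest log2 ratios were those of the RNA sensor gene Ifih1 (-0.64), Tlr4 (-0.56), Traf6 (-0.52) and Myd88 (-0.51). Sting1 had 0.18 on the probe set used and 1.59 on its other probe set. The list's median was -0.26.

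Among 16 inhibitors of JAK-STAT signalling, 2 were at least 2-fold lower and 1 higher, with a median of -0.34. The shares were 12.5% lower and 6.25% higher, beside 1.66% and 5.5% of all measured genes. Socs3, the feedback inhibitor of STAT3-activating receptors, had 962 with LPS+CPN+GGOH and 3271 with LPS+CPN, 3.40-fold lower. Cish was lower at the 2-fold line (-1.003), and the phosphatase gene Ptpn2 had a log2 ratio of -0.92 over probe sets that ran from -0.92 to -0.23. Socs2 was higher (1.66) on the probe set used, with signals of 329 with LPS+CPN+GGOH and 104 with LPS+CPN. Its 3 probe sets ran from 0.36 to 1.66. Ptpn1 was at -0.83 on the probe set used and at -1.31 on its other probe set.

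Genes listed as targets were grouped by factor. The IRF1 list also holds interferon-gamma type genes, and binding was not measured here. Of 25 measured IRF1 targets and interferon-gamma type genes, 6 were at least 2-fold lower (24.0%, beside 1.66% of all genes) and 1 was higher. Their median log2 ratio was -0.68, and 22 of the 25 were below 0, where 51.4% of all measured genes were. Bright genes lay lower than all genes: the 500 genes nearest in signal to Irf1 and Irf7 had medians of -0.10 and -0.17. The macrophage markers had a median of -0.24. No comparison matched for signal was made for the list, which was written with earlier results of these data known. Of the list's 8 measured GBP and IRG GTPases, which attack pathogen vacuoles, all were below 0 and 5 passed 2-fold, with ratios from -2.18 to -0.79. Ifi47 had 1835 with LPS+CPN+GGOH and 8299 with LPS+CPN (-2.18), Gbp7 had a log2 ratio of -1.88 and Irgm2 one of -1.68. These families hold close paralogs, whose transcripts a probe set may share. The 8 measured antigen processing genes were also all below 0, from -0.94 (Tap2) to -0.07 (Psme1), and none passed 2-fold. Among the others, Il15ra was lower (-1.70 on 1 probe set and -0.20 on the other), Ptgs2 was higher (1.19, with its other probe set at 0.37), and the chemokine genes Cxcl10 (0.03) and Cxcl9 (0.30) were not lower.

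Of 28 measured antiviral genes listed as bound by the STAT2-IRF9 complex, 6 were at least 2-fold lower (21.4%) and 0 higher. Over all measured genes the shares were 1.66% lower and 5.5% higher. The list's median was -0.42, and 23 of its genes were below 0, where 51.4% of all measured genes were. No comparison matched for signal was made for this list either. The PARP genes Parp14 (843 with LPS+CPN+GGOH and 2775 with LPS+CPN, -1.72) and Parp9 (-1.16) were among the lowest, with Ifit1 (-1.16), Cmpk2 (-1.09), Oas3 (-1.07) and Rsad2 (-1.04). Other probe sets were at -1.33 for Parp14, at -0.51 for Cmpk2 and up to -0.39 for Rsad2. At the other end Oas1a (0.02), Xaf1 (0.07), Isg20 (0.08), Mx2 (0.10) and Tor3a (0.20) were level or slightly higher, though other probe sets of Xaf1 and Tor3a reached -0.34 and -0.61. For genes not called, other probe sets passed 2-fold upward for Dhx58 (1.13) and Eif2ak2 (1.01) and downward for Samhd1 (-1.58) and Trim30a (-1.04). With equal macrophage markers 1 of the 28 was at least 2-fold lower and the median was -0.18. For the IRF1-type genes the count was 5 and the median -0.41. That scaling shifts all ratios above the floor upward alike, so genes just past the line, such as Oas3 and Rsad2, fell short of it. The median of all measured genes became 0.21, and 0.744% of them were at least 2-fold lower. The 2 lists share no gene, and whether they differ was not tested.

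STAT3 targets showed no common direction, with 4 of 22 at least 2-fold higher, 2 lower, 11 below 0 and a median of 0.07. The shares were 18.2% higher and 9.09% lower, beside 5.5% and 1.66% of all measured genes. Over the other settings the list's median ranged from -0.12 to 0.31. Among targets not called, other probe sets passed 2-fold for Il1rn (1.55) and Etv3 (-1.09). Myc (2.01), Cebpd (1.65), Vegfa (1.28) and the cyclin gene Ccnd1 (1.12) were higher, and Socs3 (-1.77) and Il10 were lower. Several of these genes are also expressed by fibroblasts, whose markers were higher on the same array; their part was not tested. On the probe sets used, Batf2 was the only 1 of 12 DNA-binding partners of IRF4 and IRF8 past 2-fold. Its signals were 299 with LPS+CPN+GGOH and 662 with LPS+CPN, a log2 ratio of -1.14. Among partners not called, other probe sets passed 2-fold for Ets1 (1.80) and Jun (-1.002). The partner list's median was 0.11, and the lymphoid factor gene Ikzf1 had a log2 ratio of -0.91. Tcf3 had one of 0.56, and Spib was at least 1.60-fold higher, from the floor with LPS+CPN.

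**Figure D3:**
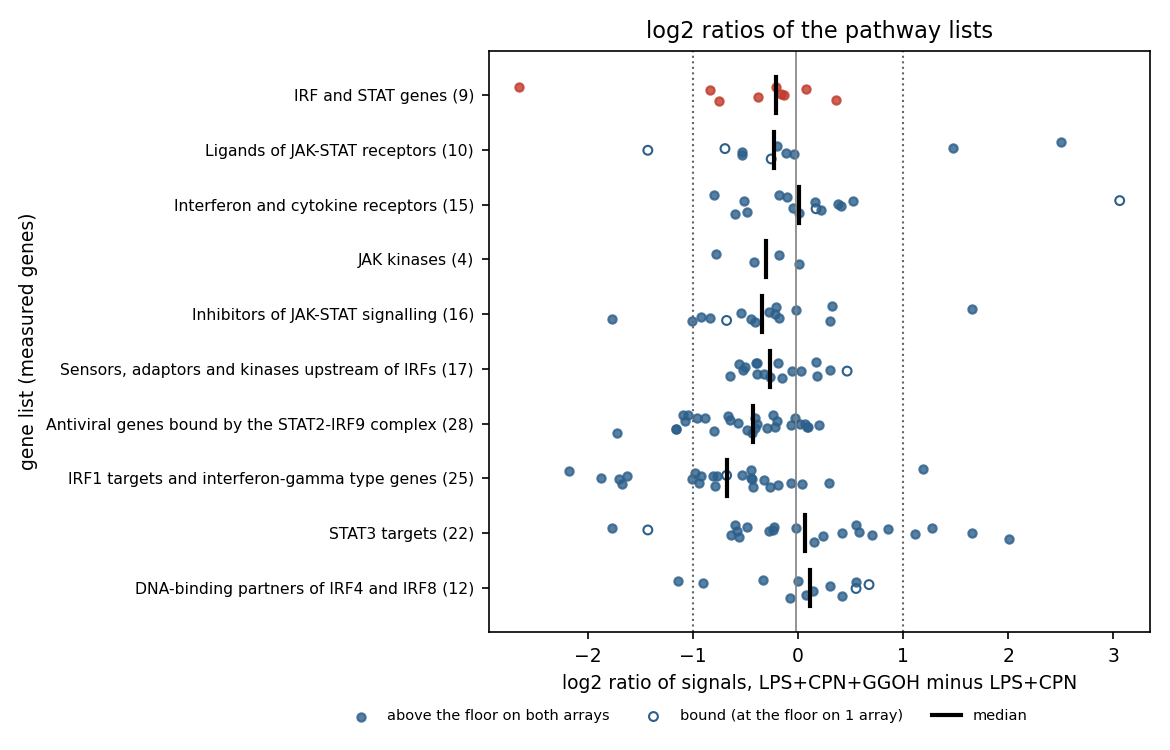
log2 ratios (LPS+CPN+GGOH minus LPS+CPN) of the measured genes of each list, 1 point per gene, with the number of genes in brackets, medians as black bars and bounds as open circles. The grey line is the median of all measured genes (-0.01) and dotted lines mark 2-fold. The lowest medians are those of the IRF1-type genes (-0.68) and the antiviral genes (-0.42), while STAT3 targets spread to both sides of 0.

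The promoter motifs printed above were also counted across all measured genes that had a promoter window. Of 755 genes with a GAS, 24 were at least 2-fold lower (3.18%), against 136 of 8596 genes without one (1.58%). For ISRE the counts were 12 of 343 (3.50%) with a match and 148 of 9008 (1.64%) without. For the NF-kB consensus they were 20 of 1153 (1.73%) with a match and 140 of 8198 (1.71%) without. The median log2 ratio was -0.01 with a GAS and -0.02 without, -0.10 with an ISRE and -0.01 without, so the medians with and without a GAS were close. Irf1 is among the genes counted, and these shares were given no test.

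**Figure D4:**
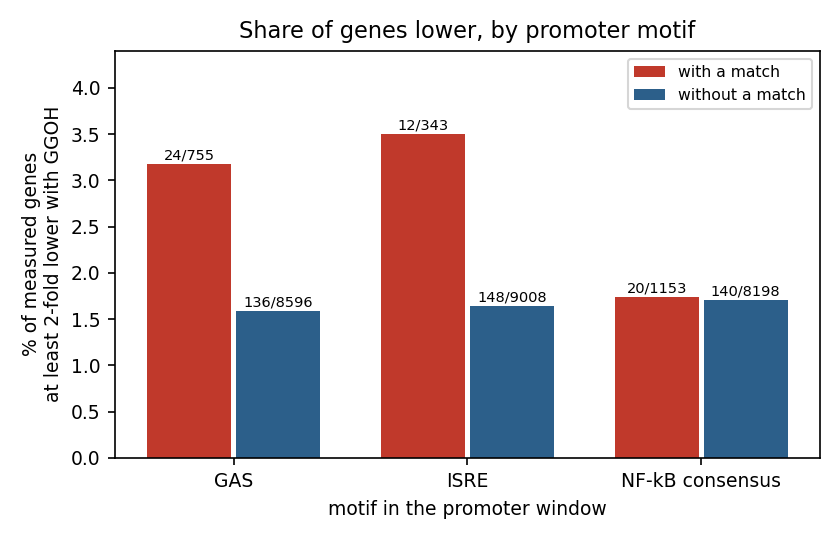
Share of measured genes at least 2-fold lower with LPS+CPN+GGOH than with LPS+CPN (percent, bars from 0), for genes with and without each motif in the promoter window, with the counts above each bar. The shares were 3.18% and 1.58% for GAS, 3.50% and 1.64% for ISRE and 1.73% and 1.71% for the NF-kB consensus.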

How the data were processed

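RNA of each culture was hybridised to 1 array. The values the authors deposited are linear signal intensities, 1 per array for every probe set. They were made with MAS5, per the submitters' processing notes, with no version or scaling target given in what was used here. The mean of the central 96% of signals was 500.004 on each array, with medians of 63.7 (LPS+CPN+GGOH) and 56.7 (LPS+CPN). Precision is limited by the number of arrays.

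The platform annotation gave 1 gene symbol to 34945 of 45037 probe sets that are not controls, several to 932 and none to 9160. The _x_at class and controls were left out of gene values, leaving 32907 probe sets of 18093 genes, of which 11518 were measured. Ratios are log2 of LPS+CPN+GGOH over LPS+CPN after raising signals to the floor; a gene at the floor on 1 array has only a bound. Called means at least 2-fold; there is no test.

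The 9 members and all lists were chosen with earlier results of these data known. Named were all members, the 4 measured genes of each pathway list with the largest ratios, and further genes (other list members and subgroups, chosen after their values were seen). Alternatives were 4 scalings, 2 floors (25th and 75th percentile), a pseudocount equal to the floor, the median over probe sets, and _x_at probe sets kept. The lowess span was 0.4. Steps were tested on simulated data. Python 3.11.15, pandas 2.3.3, numpy 2.4.6, statsmodels 0.14.6 and matplotlib 3.10.9 were used.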

Additional observations from a re-analysis of the deposited data

How the results depend on the processing

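Under each of the 9 other settings 1 of the IRF and STAT genes was at least 2-fold lower and 0 were higher. Irf4 was not measured with the floor at the 75th percentile, so 8 settings gave it a value. No measured member's log2 ratio moved by more than the spread between probe sets, but several settings could hardly move one. Division by medians and equal macrophage markers shift all ratios above the floor alike. Irf1 has 1 probe set, far above the floors. Both floors, the median over probe sets and _x_at probe sets kept therefore left it at -2.66. Irf1 ranged from -2.82 to -2.41, Irf2 from -0.999 to -0.59, Irf8 from -0.93 to -0.51 and Stat2 from 0.20 to 0.60. The median of the members ranged from -0.38 to 0.03. No list median moved by more than the same spread; that of the IRF1-type genes ranged from -0.77 to -0.41 and that of the antiviral genes from -0.59 to -0.18. Counts at least 2-fold lower changed by over 1.5 times for the antiviral genes (6 at the deposited scaling, 1 with equal macrophage markers), for inhibitors (2, and 1 with equal macrophage markers, the 75th percentile floor or the pseudocount), for ligands (1, and 4 and 0 under floors at the 25th and 75th percentiles), for STAT3 targets (2, and 1 under the 75th percentile floor), for partners of IRF4 and IRF8 (1, and 2 with division by medians or quantile normalization and 0 with equal macrophage markers or the 75th percentile floor) and for JAK kinases (0, and 1 after quantile normalization). Counts at least 2-fold higher became, under the 75th percentile floor, 1 for STAT3 targets (4 at the deposited scaling), 1 for ligands (2), 0 for receptors (1) and 0 for inhibitors (1). They became 0 for IRF1-type genes (1) with the median over probe sets, 1 for sensors and adaptors (0) with the 25th percentile floor, and 1 for partners (0) with that floor or the pseudocount. Of all genes, 191 were at least 2-fold lower, but 332 with division by medians, 307 after quantile normalization, 86 with equal macrophage markers, and 1127 and 88 with floors at the 25th and 75th percentiles. The 634 at least 2-fold higher became 1658 and 126 with these floors. The cause was not tested. No paired analysis was possible because each group had 1 array. Signals near the floor, such as those of Irf4 and Ifnb1, limit what can be detected.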

Other observations

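Other factors of both families were on the arrays and were looked at after their values were seen. The STAT5 genes Stat5a and Stat5b, which transmit growth factor and GM-CSF signals, had log2 ratios of -0.37 and -0.46 on their brightest probe sets, and Stat6, the factor of IL-4 signalling, had one of -0.32. The less bright probe sets of each gave 0.19 for Stat5a, -0.0023 for Stat5b and 0.38 for Stat6. Irf3, which induces the interferon-beta gene below TLR4, had signals of 124 with LPS+CPN+GGOH and 126 with LPS+CPN on the probe set used, while another gave 157 with LPS+CPN+GGOH and was at the floor with LPS+CPN, where its signal was 46.1. Its brightest probe set, of the _x_at class left out of gene values, gave 743 with LPS+CPN+GGOH and 945 with LPS+CPN, so the Irf3 probe sets did not share a direction. Among cofactors that bind IRF2, Irf2bpl was at least 2-fold higher, with 868 with LPS+CPN+GGOH and 427 with LPS+CPN (log2 ratio 1.02), on the probe set used. A brighter Irf2bpl probe set of the _x_at class gave 4308 with LPS+CPN+GGOH and 3058 with LPS+CPN, short of 2-fold. Irf2bp2 had a log2 ratio of 0.30 on its brightest probe set.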
